A study of Rattus norvegicus with 105 samples.

Results

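The Egr family holds 4 genes, Egr1, Egr2, Egr3 and Egr4, and was followed here through every probe set that the platform's annotation table assigns to exactly one of these symbols. This rule found 4 of 14217 gene symbols and 6 of 31042 probe sets, 1 each for Egr1 and Egr3 and 2 each for Egr2 and Egr4. Counts out of 6 members below are counts of probe sets, in which Egr2 and Egr4 each enter with 2. RNA from the frontal cortex of rats was measured on Affymetrix arrays in 3 experiments with 11 groups. A ventral hippocampal lesion (12 arrays) was set against a sham (10), and disruption of the same region by the sodium channel blocker tetrodotoxin, TTX (11), against its own sham (9). Chronic treatment with an antipsychotic formed the third experiment, with clozapine at a low (10 arrays), medium (9) or high level (8), haloperidol at a low (9), medium (9) or high level (9), and vehicle (9). Doses were given in words only, and strain, sex, age, lesion method and treatment times were not given in the sources used here. Nothing in the labels says that every array came from a different rat, so each p-value measures the spread between these samples, which may be technical.

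Egr proteins are transcription factors that bind GC-rich sites in DNA through zinc fingers. Their genes belong to the immediate early genes: in neurons, synaptic activity and calcium entry switch them on within minutes, with no new protein needed, and the transcripts then decay quickly. Egr1, also called zif268, is widely used as a marker of recent neuronal activity. The corepressors Nab1 and Nab2 bind Egr1, Egr2 and Egr3 and dampen their action. Upstream, serum response factor (Srf) with its Elk partners binds the CArG box, and CREB binds the cAMP response element (CRE), in front of several immediate early genes.

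Promoter sequence is shown as background for the members that had a promoter window. Whether it bears on how the members moved from array to array, described further on, was not tested. RefSeq promoter windows, covering 250 bases before and 50 bases after the annotated start, matched 3 of the 4 genes. Each line gives the 150 bases before the start in the GRCr8 build, 5′ to 3′ on the gene's own strand. Only exact matches are marked, a CArG box being CC and GG around a stretch of A and T only. The Egr1 stretch is chr18:26736928-26737077 on the plus strand, the Egr2 stretch chr20:21054442-21054591 on the minus strand and the Egr4 stretch chr4:119607818-119607967 on the minus strand. Capitals mark CArG boxes and the letters CGTCA, the core of a CRE (here called a CRE core), each searched on both strands; no 2 matches overlapped.
Egr1: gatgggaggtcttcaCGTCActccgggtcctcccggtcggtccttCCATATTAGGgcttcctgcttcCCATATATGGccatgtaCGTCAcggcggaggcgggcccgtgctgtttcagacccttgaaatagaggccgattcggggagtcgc
Egr2: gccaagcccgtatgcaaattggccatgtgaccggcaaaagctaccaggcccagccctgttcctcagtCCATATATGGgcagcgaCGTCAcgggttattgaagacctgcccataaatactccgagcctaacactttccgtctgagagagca
Egr4: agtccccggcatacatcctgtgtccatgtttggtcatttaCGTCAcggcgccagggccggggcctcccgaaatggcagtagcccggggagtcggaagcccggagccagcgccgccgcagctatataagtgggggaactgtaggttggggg

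The Egr1 window held 2 CArG boxes, the nearer one at -83 to -74 from the start, and 2 CRE cores, the nearer one at -66 to -62. The Egr2 window held 1 CArG box and 1 CRE core at the same distances from its start as the nearer pair of Egr1, -83 to -74 and -66 to -62, with 7 bases between them in both genes. The Egr4 window held 2 CRE cores, at -178 to -174 and at -110 to -106, and no exact CArG box. Its printed line does hold ccatgtttgg, which differs from a CArG box by 1 letter. That stretch also lies 7 bases before the nearer CRE core. Matches with a differing letter were not searched for in any window. Among all 33469 windows of this length, 1.64% held a CArG box, 0.021% held 2 or more, 21.2% held a CRE core and 0.272% held both. The spacing shared by Egr1 and Egr2 was noticed after the windows had been read; 4 windows (0.012%) held it, and Dusp5, which encodes a MAP kinase phosphatase, was another of the 4. A match in letters is a description and does not show binding.

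**Figure D1:**
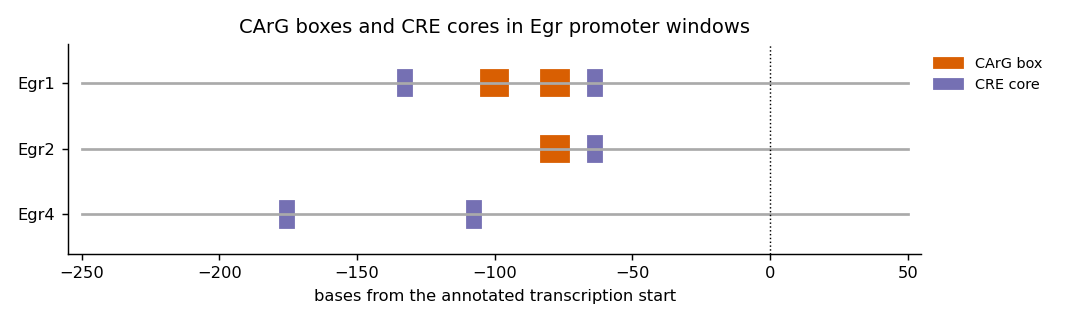
Positions of CArG boxes (orange) and CRE cores (purple) in the promoter windows of Egr1, Egr2 and Egr4, in bases from the annotated transcription start (dotted line). Egr1 and Egr2 share a CArG box at -83 and a CRE core at -66. Egr4 has exact matches to the CRE core only, and near matches are not drawn.

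Defining markers of the labelled tissue were present: Snap25, a synaptic protein of neurons, was at a median of 16.74 log2 units and Slc17a7, the vesicular glutamate transporter of cortical excitatory neurons, at 14.74. Signal was also present for the 8 measured markers of striatal neurons, with medians between 8.67 for Adora2a and 12.79 for Pde10a; levels of different probe sets are not comparable, so these values set no share of either tissue. No 2 arrays held identical values, and the highest correlation between any pair was 0.969. By a lower limit of 3 median absolute deviations, 6 arrays correlated less well with the rest of their experiment: sham replicate 9 of the lesion experiment, haloperidol low replicate 9, haloperidol medium replicates 8 and 9, and haloperidol high replicates 7 and 8. Array numbers in the titles form 2 runs of neighbouring numbers in the lesion and TTX experiments and 3 in the neuroleptic experiment; what a run stands for is not stated. Every number of arrays below limits the precision of the values beside it.

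Values are log2 of intensities that had been quantile-normalised and raised to a floor of 32, which is 5 on the log2 scale. Egr1 (probe set 1368321_at) was bright, with deposited intensities of 11484 to 42634 and a mean above 97.6% of probe sets. Egr2 (1387306_a_at) had a median intensity of 1029 and Egr4 (1387442_at) of 2292. These 3 passed the filter that kept the brightest 60% of probe sets, 18625 in each fit. Egr3 (1369545_at, median 397), the second Egr2 probe set (1398266_a_at, 170) and the second Egr4 probe set (1375784_at, 185) did not pass and were tested in a fit of all 31042 probe sets. Both second probe sets were close to the floor on part of the arrays, 17 arrays lying on it in the deposited intensities for Egr2 and 3 for Egr4, so differences in them depend on the floor.

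When all arrays were normalised together, the lesion group had the lowest mean of the 11 groups for Egr1, Egr2, Egr3 and Egr4. For Egr1 the order ran from haloperidol medium at 14.78 ± 0.21 (SD, n = 9), clozapine medium at 14.74, haloperidol low at 14.73, haloperidol high at 14.63 and clozapine low at 14.61 through TTX sham at 14.58, TTX at 14.51, lesion sham at 14.43, clozapine high at 14.28 and vehicle at 14.14 to lesion at 13.97 ± 0.28 (SD, n = 12). All 10 steps between neighbours in that order were smaller than either neighbour's SD, for Egr1 as for Egr3 and Egr4. For Egr2 the step from clozapine medium, at 11.07 ± 0.44 (SD, n = 9), to haloperidol medium, at 10.49 ± 0.53 (SD, n = 9), was larger than both SDs and the other 9 steps were not. The lesion group lay at 8.93 ± 0.73 (SD, n = 12) for Egr2. Egr3 ran between 8.92 in haloperidol high and 8.16 in lesion, and Egr4 between 11.33 in haloperidol medium and 10.79 in lesion. Experiment and group cannot be told apart in steps between experiments, so the tests below stay within one experiment or compare effects.

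**Figure D2:**
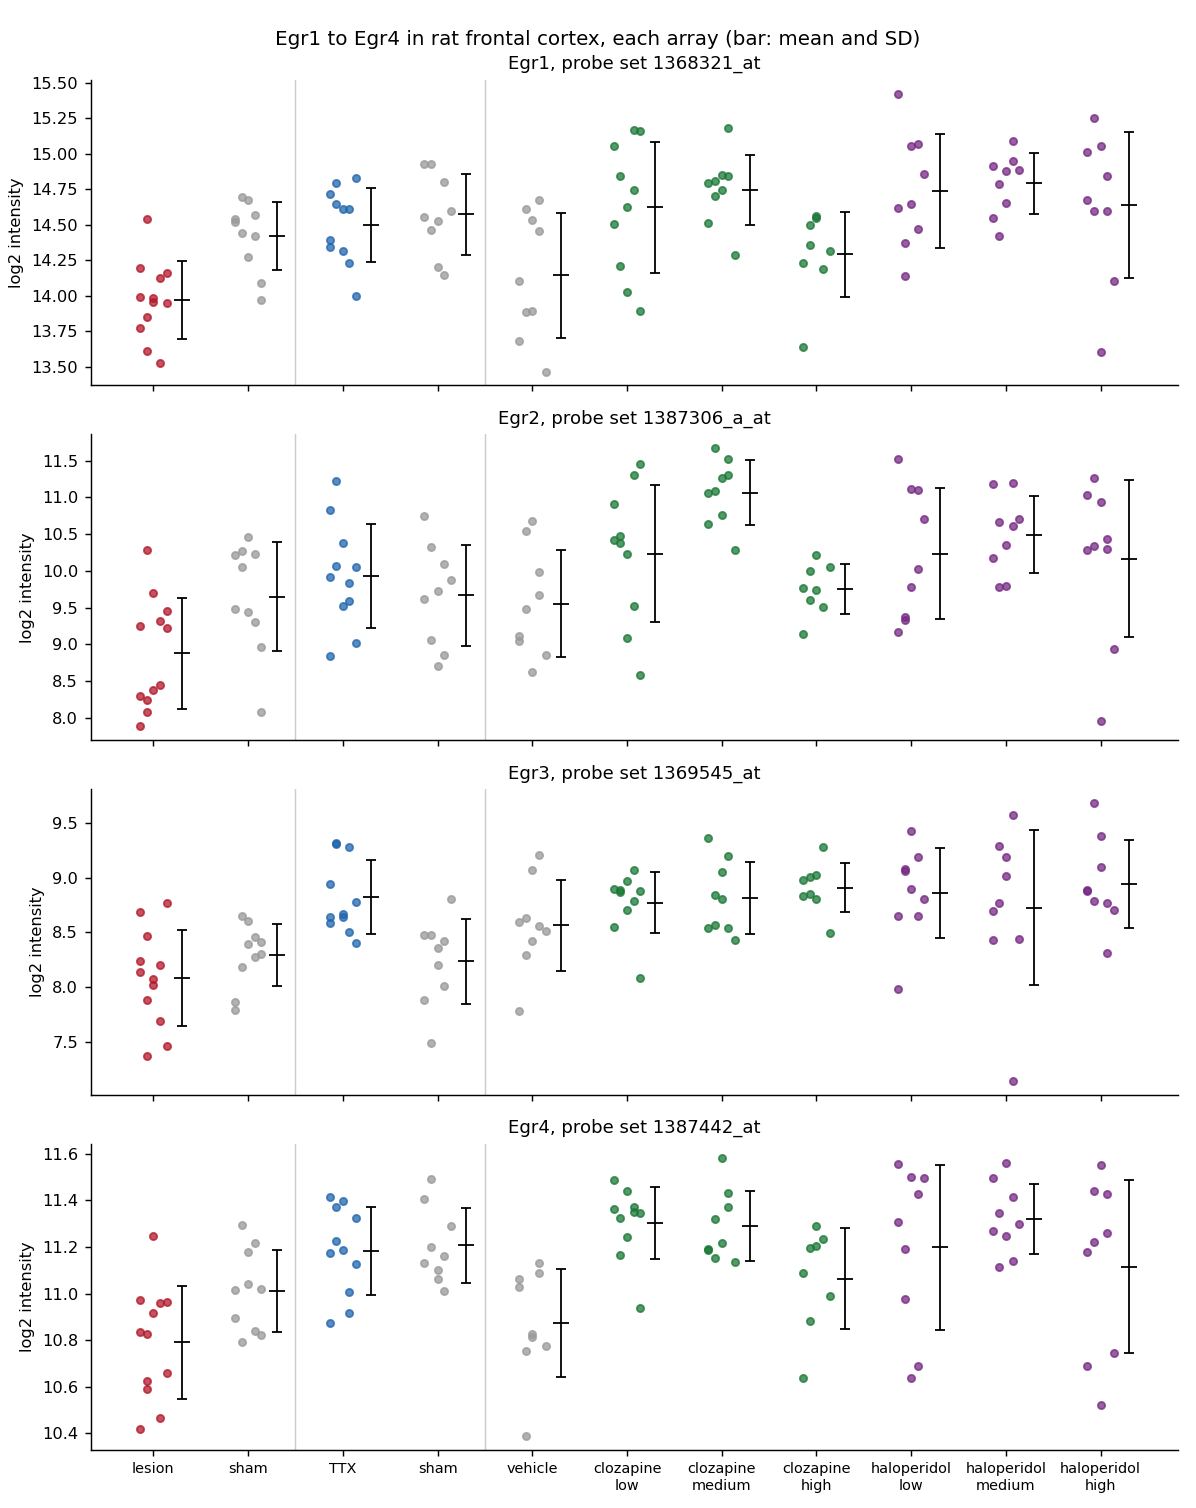
Log2 intensity of Egr1, Egr2, Egr3 and Egr4 on every array, normalised within each experiment; points are arrays, and the bar beside them gives the mean and SD. Grey lines separate the lesion, TTX and neuroleptic experiments. The lesion points of Egr1 lie mostly below the sham points. The lowest clozapine medium point of Egr4 lies just above the highest vehicle point.

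The lesion comparison concerned the frontal cortex of rats whose ventral hippocampus had been damaged. All 6 Egr probe sets had a lower mean in lesioned rats. No member passed the test, an adjusted p under 0.05 by limma over all probe sets tested. With an unadjusted p under 0.05, all 3 members that passed the filter were on the lower side, where 3.55% of filtered probe sets were, and 4 of all 6 were, against 3.02% of all probe sets. Both Egr2 probe sets were among these 4, and all members share arrays, so they are not independent. Called in either direction were 0% of filtered probe sets and 0.00322% of all probe sets. In bulk tissue such as this, fewer cells of a type and less RNA per cell cannot be told apart.

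Egr1 in lesioned rats ran between 13.52 and 14.54 with a median of 13.97, and in shams between 13.97 and 14.70 with a median of 14.48. The groups overlapped, but 11 of 12 lesion arrays lay below the sham mean and 6 of 12 below every sham array. The difference was -0.45 ± 0.11 (SE), 1.36-fold lower, with an adjusted p of 0.404, and its unadjusted p ranked 14th among 18625 probe sets. Within the 2 runs of array numbers it was -0.56 and -0.34. Leaving out any one array kept it between -0.50 and -0.41.

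Egr2, known in mice for hindbrain patterning and for myelination by Schwann cells, and also induced in cortical neurons, ran between 7.88 and 10.29 with a median of 8.83 in lesioned rats, against 8.08 to 10.45 with a median of 9.77 in shams. Lesion arrays were spread over nearly the whole sham range, with 10 of 12 below the sham mean and 1 below every sham array. The difference was -0.77 ± 0.30 (adjusted p = 0.588), and within runs it was -1.11 and -0.43. The second Egr2 probe set was on the floor in 8 of 12 lesion arrays and in 3 of 10 sham arrays, and differed by -1.05 ± 0.46 (adjusted p = 0.763).

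Egr4, which in mice is needed for male germ cells and is induced by activity in neurons, lay between 10.42 and 11.25 with a median of 10.83 in lesioned rats and between 10.79 and 11.30 with a median of 11.02 in shams. The lowest 5 of 12 lesion arrays were below every sham array and 11 of 12 were below the sham mean. The difference was -0.22 ± 0.090 (adjusted p = 0.602), with -0.22 in each run. Its second, dim probe set differed by -0.48 ± 0.47.

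Egr3, needed in mice for muscle spindles and itself a target of other activity-driven factors in neurons, had the smallest of the 6 differences. It lay between 7.37 and 8.77 with a median of 8.11 after the lesion, against 7.79 to 8.65 with a median of 8.35 in shams. Lesion arrays reached both below and above the sham range, with 3 below its lowest and 2 above its highest array, and the difference was -0.21 ± 0.16 (adjusted p = 0.843).

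Among markers of other cells in the same comparison, 8 of 9 cortical neuron markers had lower means in lesioned rats, by a median of only -0.037, and 6 of 7 markers of GABAergic neurons had higher means, by a median of 0.15. Summed over its list, the cortical neuron signal ran from 257519 to 300742 in lesioned rats and from 271059 to 300900 in shams. The GABAergic sum ran from 81149 to 114132 in lesioned rats and from 69202 to 90162 in shams. Striatal neuron markers were higher for 4 of 6 tested genes with a median of 0.16, with an unadjusted p under 0.05 for 2 on the higher and 1 on the lower side, and their sums were 18374 to 27407 in lesioned rats and 20579 to 23522 in shams. All 5 oligodendrocyte markers tested had lower means (median -0.095), as had 5 of 7 endothelial and mural markers (median -0.12), while 4 of 5 microglial markers had higher means (median 0.071). No marker was called by limma, although 3 of the GABAergic ones had an unadjusted p under 0.05. Their part in the Egr values was not tested.

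No gene of the lists around the Egr family was called after the lesion (limma). Of 15 tested upstream genes (Srf and its partners, CREB factors and MAP kinases), 8 had lower and 7 higher means, and 0 were called by limma, against 1 in each direction at an unadjusted p under 0.05. Those were Camk4, a calcium-activated kinase of CREB, at -0.37 ± 0.12, and Elk1, an Srf partner, at 0.26 ± 0.10. Of 6 corepressors and partners, 4 were lower, led by Nab1 at -0.14 ± 0.067. Of 15 other immediate early transcription factors 11 were lower, with a median of -0.088 against -0.0012 for all probe sets tested, and the 2 with the smallest p were Nr4a3 at -0.51 ± 0.18 and the clock gene Per1 at -0.36 ± 0.15. Of 19 tested genes reported as Egr targets, 12 were higher and 7 lower, with 0 called; the smallest p on the higher side belonged to F3, tissue factor, at 0.19 ± 0.089.

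The TTX comparison concerned the same cortex after tetrodotoxin disruption of the ventral hippocampus. Egr3 had the smallest p of the family here. In TTX rats it lay between 8.40 and 9.31 with a median of 8.67, against 7.50 to 8.80 with a median of 8.35 in shams. All 11 TTX arrays were above the sham mean and 4 were above every sham array. The difference was 0.59 ± 0.16. Its unadjusted p of 0.00140 ranked 40th among 31042 probe sets, and its adjusted p of 0.964 was far from the threshold. Within runs it was 0.59 and 0.65, and leaving out single arrays kept it between 0.49 and 0.66.

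The other members were close to their shams or varied with the run. Egr1 ran from 14.00 to 14.83 in TTX rats and from 14.14 to 14.93 in shams, overlapping almost fully, with a difference of -0.075 ± 0.12. Egr4 differed by -0.023 ± 0.079, and its interval of -0.19 to 0.14 bounds the change on either side. Egr2 ran from 8.84 to 11.22 in TTX rats against 8.70 to 10.75 in shams, and its difference of 0.27 ± 0.29 combined -0.32 in one run with 0.95 in the other. The second Egr2 probe set was on the floor in 0 of 11 TTX and 4 of 9 sham arrays and differed by 0.98 ± 0.51, with 0.20 and 1.92 within runs. The second Egr4 probe set differed by 0.19 ± 0.61.

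In all, 1 of the 6 members, Egr3, had an unadjusted p under 0.05 and a higher mean, where 2.7% of all probe sets did; none of the 3 filtered members did, against 2.5% of filtered probe sets. No probe set at all was called in this comparison (0%, limma). All 9 cortical neuron markers had higher means in TTX rats, with a median of 0.033 and sums of 294436 to 322527, against 292712 to 310188 in shams. Striatal neuron markers were higher for 6 of 7 tested genes, with a median of 0.18 and sums of 22146 to 27298 in TTX rats, against 21509 to 27878 in shams. Lower means were found for 5 of 6 oligodendrocyte markers (median -0.092) and 5 of 7 endothelial and mural markers (median -0.083). The sum over markers of meninges and choroid plexus was 11868 to 22617 in TTX rats. In shams it had a median of 17887 but reached 126553, so the sham samples were uneven in this signal. The part of these markers in the Egr3 value was not tested. Of the Egr partners, Nab2, itself an Egr target, was at 0.18 ± 0.072 (adjusted p = 0.999). Of 15 other immediate early transcription factors 12 were higher, with a median of 0.13, led by Junb at 0.29 ± 0.13. Among 15 upstream genes, 9 were lower and 6 higher, and none reached an unadjusted p under 0.05.

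A joint fit of both experiments tested the difference between the effects, lesion against its sham minus TTX against its sham. All 6 members were below 0, and none was called, as was no other probe set (0%, limma). On the lower side, 2 of the 3 filtered members had an unadjusted p under 0.05, against 3.12% of filtered probe sets, and 4 of all 6 did, against 3.07% of all probe sets. Here too, both Egr2 probe sets were among the 4. Egr3 differed by -0.80 ± 0.23, ranking 42nd of 31042 by unadjusted p, with an adjusted p of 0.701. Egr2 differed by -1.03 ± 0.43 (adjusted p = 0.724) and its second probe set by -2.03 ± 0.70 (adjusted p = 0.702). Egr1 differed by -0.38 ± 0.16 (adjusted p = 0.735), Egr4 by -0.20 ± 0.12 and its second probe set by -0.68 ± 0.78. The corepressor gene Nab2 lay on the same side, at -0.25 ± 0.10. All 9 cortical neuron markers were below 0 as well, by a median of -0.077, whereas 6 of 7 GABAergic markers were above 0, by a median of 0.15; their part in the Egr values was not tested.

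**Figure D3:**
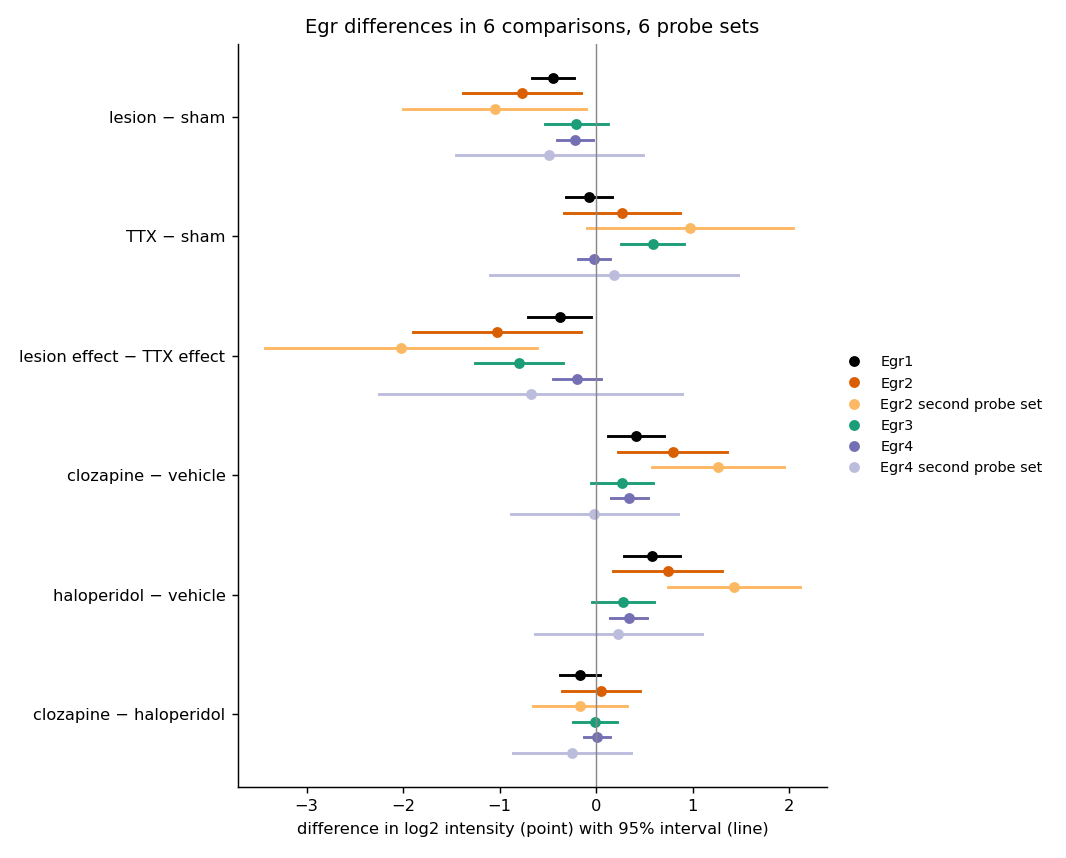
Difference in log2 intensity (point) with its 95% interval from limma (line) for the 6 Egr probe sets in 6 comparisons. All lesion points lie below 0, Egr3 lies at 0.59 for TTX, and Egr1, Egr2 and Egr4 lie above 0 for both drugs against vehicle. The second Egr4 probe set lies at -0.017 for clozapine against vehicle.

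Both antipsychotics were then set against vehicle, each as the mean of its 3 dose levels. Clozapine and haloperidol share the 9 vehicle arrays, so a low vehicle value would raise both differences. Egr1, Egr2 and Egr4 all had higher means under both drugs, and none passed the test. All 3 had an unadjusted p under 0.05 on the higher side under clozapine, where 2% of filtered probe sets did, and all 3 under haloperidol, where 3.44% did. Of all 6 members, 4 did under each drug, against 2.31% of all probe sets for clozapine and 3.13% for haloperidol. Under each drug both Egr2 probe sets were among these 4, which share arrays and are not independent. Called were 0% for clozapine in either fit, and 0.0161% of filtered and 0.00322% of all probe sets for haloperidol, none of them a member.

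Vehicle arrays of Egr1 ran from 13.46 to 14.67 with a median of 14.10. Group medians were 14.68, 14.79 and 14.34 at low, medium and high clozapine and 14.64, 14.88 and 14.68 at low, medium and high haloperidol. All 6 drug medians lay above the vehicle median, and in every drug group some arrays overlapped the vehicle range. Egr1 differed by 0.41 ± 0.15 for clozapine, with 24 of 27 arrays above the vehicle mean (adjusted p = 0.977). For haloperidol it differed by 0.58 ± 0.14, with 24 of 27 above (adjusted p = 0.232, rank 14 of 18625).

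Egr2 ran from 8.62 to 10.67 with a median of 9.48 in vehicle. Its medians were 10.40, 11.08 and 9.75 at low, medium and high clozapine and 10.02, 10.62 and 10.34 for haloperidol in the same order. It differed by 0.80 ± 0.28 for clozapine and 0.74 ± 0.28 for haloperidol, with 22 of 27 arrays above the vehicle mean for each (adjusted p = 0.977 and 0.646). Its second probe set differed by 1.27 ± 0.34 (adjusted p = 0.799) and by 1.43 ± 0.34 (adjusted p = 0.344, rank 7 of 31042).

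Egr4 ran from 10.39 to 11.13 with a median of 10.83 in vehicle. Under clozapine 26 of 27 arrays were above the vehicle mean and 22 of 27 above every vehicle array; under haloperidol the counts were 22 and 20 of 27. The differences were 0.34 ± 0.094 for each drug (adjusted p = 0.758, rank 13, for clozapine and 0.322, rank 40, for haloperidol). Its second probe set, at -0.017 ± 0.43 for clozapine and 0.23 ± 0.43 for haloperidol, did not follow it. Egr3 differed by 0.27 ± 0.16 and 0.28 ± 0.16 (adjusted p = 0.977 and 0.899), and its intervals of -0.054 to 0.59 and -0.042 to 0.60 included 0.

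Within the 3 runs of array numbers the clozapine difference of Egr1 was 0.47, 0.49 and 0.44, that of Egr2 1.03, 0.92 and 0.63, and that of Egr4 0.39, 0.18 and 0.44. The haloperidol difference varied more, with 0.63, 1.07 and 0.33 for Egr1, 0.98, 1.51 and 0.09 for Egr2 and 0.36, 0.49 and 0.16 for Egr4. Each run held only 4, 2 and 3 vehicle arrays, in that order. Of the arrays of low correlation, 5 were haloperidol arrays, all in the third run. Without the arrays of low correlation, haloperidol differed from vehicle by 0.62 ± 0.14 for Egr1 (adjusted p = 0.142), 0.83 ± 0.28 for Egr2 and 0.39 ± 0.089 for Egr4 (adjusted p = 0.163). For Egr3 it was 0.22 ± 0.16.

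The drugs were also compared with each other. Clozapine minus haloperidol was -0.17 for Egr1 (95% interval -0.37 to 0.036), 0.052 for Egr2 (-0.35 to 0.45), -0.012 for Egr3 (-0.24 to 0.22) and 0.0076 for Egr4 (-0.13 to 0.14). None of the 3 filtered members had an unadjusted p under 0.05, where 15.2% of filtered probe sets did. With so few members, this does not set them apart from that share. The dim members, tested over all probe sets, did not reach an unadjusted p under 0.05 either. Called were 1.2% of filtered and 0.158% of all probe sets, none of them a member (limma). The intervals leave room for differences of up to about the size of their bounds in either direction. In the Egr2 values the runs disagreed, with 0.05, -0.59 and 0.54.

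Each dose level was then set against vehicle. At medium clozapine Egr2 ran from 10.28 to 11.67 with a median of 11.08, against vehicle at 8.62 to 10.67. All 9 arrays were above the vehicle mean and 7 were above every vehicle array. The difference was 1.51 ± 0.35, 2.85-fold higher, with an adjusted p of 0.107. Within runs it lay between 1.44 and 1.75.

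The second Egr2 probe set gave the only call among the members. It ran from 7.32 to 9.03 with a median of 8.60 at medium clozapine, against 5.12 to 7.38 with a median of 6.25 in vehicle. The groups overlapped by a single clozapine array, 8 of 9 lying above every vehicle array. Egr2 rose in this probe set by 2.06 ± 0.42, 4.16-fold, with an adjusted p of 0.0461 over all 31042 probe sets, of which 0.0161% were called. The size rests on vehicle values close to the floor: with a floor of 128 the difference was 1.26 ± 0.26 (adjusted p = 0.0583). Within runs the difference was 1.89, 2.19 and 2.31. The call was at the edge of the threshold: with intensities as deposited the adjusted p was 0.0784, and it was above 0.05 in 39 of the 63 fits that left out 1 array.

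Those 39 arrays were clozapine medium replicates 1, 3, 4, 6, 7, 8 and 9, vehicle replicates 1, 3, 4, 5, 6 and 9, and 26 arrays of the other groups. Without one of these 26, which enter only through the shared spread and normalisation, the adjusted p was between 0.0508 and 0.0554. Over all 63 fits the difference stayed between 1.91 and 2.19. With the log2 values of both Egr2 probe sets averaged, the difference was 1.78 with an adjusted p of 0.0159. A fit with runs as a term gave 2.11 ± 0.42 (adjusted p = 0.0250) for the second probe set.

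The other members at medium clozapine had higher means too, apart from the second Egr4 probe set at -0.011 ± 0.53. Egr1 differed by 0.60 ± 0.18 (adjusted p = 0.716) with 9 of 9 arrays above the vehicle mean. Egr4 ran from 11.138 to 11.58, its lowest array close to the highest vehicle array at 11.131, and differed by 0.41 ± 0.12 (adjusted p = 0.534). Of the 3 filtered members 0 were called, where 0.0215% of filtered probe sets were, and all 3 had an unadjusted p under 0.05 on the higher side, where 2.05% did. Egr3 differed by 0.25 ± 0.20.

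The same comparison held calls in genes of the surrounding lists. Arc, a synaptic plasticity gene and a reported Egr target, rose by 1.46 ± 0.27 (adjusted p = 0.00993), and Fos, the classic partner of Jun in AP-1, rose by 2.02 ± 0.39 (adjusted p = 0.0113). Of 15 other immediate early transcription factors 13 were higher, with a median of 0.24 against 0.0019 for all probe sets tested. Of 18 reported Egr targets 11 were higher, Arc being the only call. Nab2 was at 0.13 ± 0.10. The upstream genes were divided, with 8 higher and 7 lower of 15 and 0 called or with an unadjusted p under 0.05 (limma); Srf was at 0.10 ± 0.063. Striatal neuron markers had higher means for 6 of 7 tested genes (median 0.11), and both tested blood markers were higher (median 0.34), with none called; their part in the Egr values was not tested.

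At low clozapine Egr1 differed from vehicle by 0.48 ± 0.17, Egr2 by 0.68 ± 0.34, Egr3 by 0.21 ± 0.19 and Egr4 by 0.43 ± 0.11, the last ranking 3rd of 18625 by unadjusted p. At high clozapine the values were 0.15 ± 0.18 for Egr1, 0.20 ± 0.36 for Egr2, 0.34 ± 0.20 for Egr3 and 0.19 ± 0.12 for Egr4. The number of the 3 filtered members with an unadjusted p under 0.05 on the higher side was 3 at low clozapine, against 1.2% of filtered probe sets, and 0 at high clozapine, against 1.98%; none was called at either level, where 0% of filtered and of all probe sets were called at the low level and 0.00537% and 0.00322% at the high level. The filtered call at the high level was Ccn2, an activity-induced gene that encodes a matricellular growth factor, which rose by 0.60 ± 0.10 (adjusted p = 0.00545). Both tested blood markers, Hbb and Alas2, had higher means at high clozapine than in vehicle, at 0.72 ± 0.25 and 1.03 ± 0.30, each with an unadjusted p under 0.05, and the sum over 5 blood markers was 39359 to 98215 at high clozapine and 33920 to 49488 in vehicle; their part in the Egr values was not tested.

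High and medium clozapine were set against each other after their levels had been seen, so this is a description of a chosen pair. Egr2 ran from 9.14 to 10.21 at high clozapine and from 10.28 to 11.67 at medium clozapine. The difference was -1.31 ± 0.36 (95% interval -2.03 to -0.60). It ranked 5th of 18625 by unadjusted p, yet its adjusted p was close to 1, and 0% of filtered and 0.00322% of all probe sets were called. On the lower side 2 of 3 filtered members had an unadjusted p under 0.05, against 1.15% of filtered probe sets. Within runs the Egr2 difference was -1.10, -1.15 and -1.81. The second Egr2 probe set, whose groups overlapped, differed by -1.32 ± 0.43, with -0.28, -2.24 and -2.36 within runs. Egr1 differed by -0.46 ± 0.18 and Egr4 by -0.22 ± 0.12, whereas Egr3 was at 0.092 ± 0.20. All 15 other immediate early transcription factors tested were lower at the high level, with a median of -0.31, Fos at -1.54 ± 0.40. Both tested blood markers were higher at the high level, by a median of 0.53, and the sum over 5 markers lay between 39359 and 98215 at high clozapine and between 37267 and 84045 at medium clozapine, and their part in the Egr values was not tested. High minus low clozapine, a comparison not chosen in this way, gave -0.33 ± 0.18 for Egr1, -0.48 ± 0.35 for Egr2, 0.14 ± 0.20 for Egr3 and -0.24 ± 0.12 for Egr4. Of the filtered members, only Egr4 had an unadjusted p under 0.05 on the lower side, against 1.27% of filtered probe sets, and 0% were called. The same 2 blood markers were higher in this comparison by a median of 1.20, both with an unadjusted p under 0.05, and the sum over 5 markers was 9079 to 68199 at low clozapine; their part was not tested.

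Under haloperidol the Egr1 and Egr2 values lay closer together over the 3 levels; whether the dose profiles differ between the drugs was not tested. Egr1 differed from vehicle by 0.60 ± 0.18, 0.65 ± 0.18 and 0.49 ± 0.18 at the low, medium and high level, and Egr2 by 0.68, 0.94 and 0.61, each ± 0.35. Egr4 differed by 0.32, 0.45 and 0.24, each ± 0.12, and Egr3 by 0.30, 0.16 and 0.38, each ± 0.20. The second Egr2 probe set was at 1.46, 1.57 and 1.27, each ± 0.42. No member was called at any level. An unadjusted p under 0.05 on the higher side was reached by 2 of 3 filtered members at the low level, against 2.2% of filtered probe sets, by 3 at the medium level, against 2.39%, and by 2 at the high level, against 3.12%. Called in the same order were 0%, 0.00537% and 0.0268% of filtered probe sets and 0%, 0.00322% and 0.00966% of all probe sets.

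High minus low haloperidol was -0.10 ± 0.18 for Egr1, -0.068 ± 0.35 for Egr2, 0.083 ± 0.20 for Egr3 and -0.084 ± 0.12 for Egr4, all smaller than their standard errors; 0% of probe sets were called. High minus medium haloperidol, added for symmetry with clozapine, was -0.15 ± 0.18 for Egr1, -0.33 ± 0.35 for Egr2, 0.22 ± 0.20 for Egr3 and -0.21 ± 0.12 for Egr4, with no member called or at an unadjusted p under 0.05 (0% of filtered and 0.00322% of all probe sets called, limma). The values at the high level varied with the run, and 5 of its 9 arrays fell in the third. Egr2 at that level differed from vehicle by 1.31 and 1.63 in the first and second runs and by -0.30 in the third. In the same order of runs it differed by 1.19, 1.10 and -0.14 at the low level. At the medium level these values were 0.44, 1.80 and 0.73. What lay behind the variation between runs was not tested. Without the arrays of low correlation, Egr2 at the high level differed by 0.91 ± 0.35 and Egr1 by 0.65 ± 0.18. At the medium level Egr3 then differed by only 0.0023 ± 0.21.

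**Figure D4:**
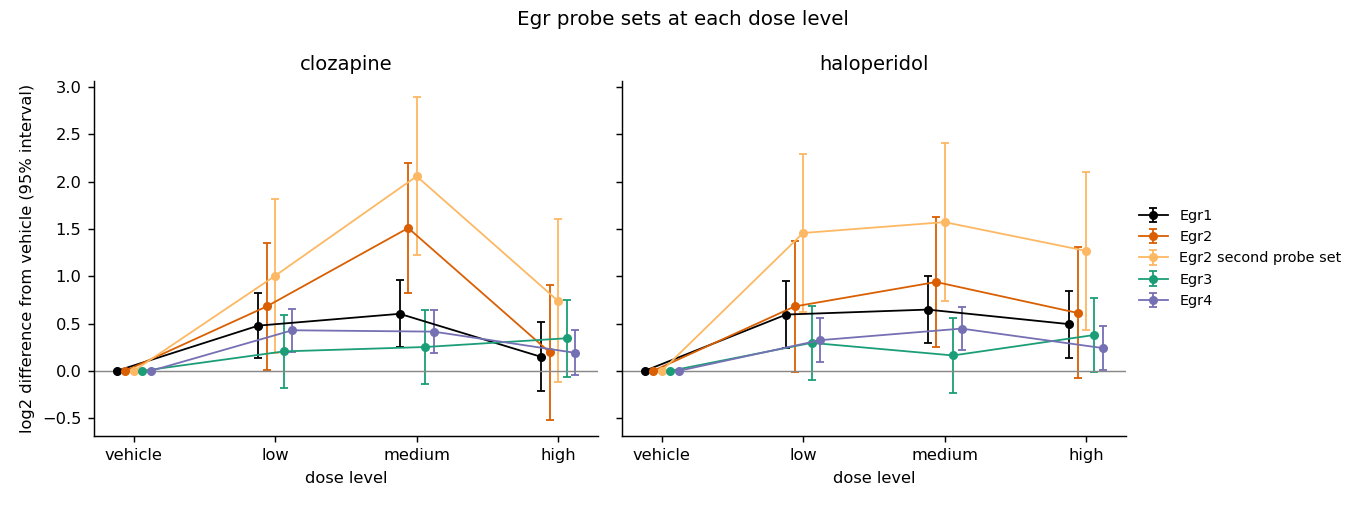
Difference from vehicle in log2 intensity, with 95% intervals, at low, medium and high clozapine (left) and haloperidol (right) for 5 Egr probe sets; vehicle is 0 by definition and lines only join points. Under clozapine Egr2 peaks at 1.51 (second probe set 2.06) at the medium level and lies at 0.20 (0.74) at the high level, while haloperidol points stay between 0.16 and 1.57.

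Over both drug means, no corepressor, partner or upstream gene was called against vehicle (limma). Srf was at 0.10 ± 0.052 for clozapine and 0.15 ± 0.052 for haloperidol (adjusted p = 0.977 and 0.574). Nab1 was at 0.16 ± 0.067 for haloperidol. Arc was at 0.84 ± 0.22 for clozapine and 0.61 ± 0.22 for haloperidol, the neurotrophin gene Bdnf at 0.35 ± 0.10 for clozapine, and Psmb9, an immunoproteasome subunit, at -0.34 ± 0.10 for haloperidol, all with adjusted p above 0.05. Between the drugs, Rps6ka5, a kinase of CREB and histone H3, fell by 0.32 under clozapine relative to haloperidol (adjusted p = 0.0374) and Klf9, a GC-box factor, rose by 0.085 (adjusted p = 0.0446). The neuropeptide gene Npy, 1 of the markers of GABAergic neurons, rose by 0.15 (adjusted p = 0.0244). These 3 calls were made in a comparison that lost all 224 of its calls without the arrays of low correlation. Striatal markers had higher means for 7 of 7 tested genes under clozapine and 5 of 7 under haloperidol, with sums over 8 markers of 19828 to 37784 over the clozapine levels, 17767 to 31908 over the haloperidol levels and 20826 to 24578 in vehicle. Their part in the Egr values was not tested.

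Members were then followed from array to array, as deviations from their group means, with two-sided permutation tests in each experiment and Benjamini-Hochberg adjustment over 24 relations. Egr1 and Egr2 moved together in all 3 experiments. Pearson's r was 0.77 in the lesion (n = 22), 0.87 in the TTX (n = 20) and 0.86 in the neuroleptic experiment (n = 63), with Spearman's rho of 0.69, 0.88 and 0.82. The permutation p was 8e-05, 1e-05 and 1e-05, the last value being the smallest that the permutations can give, and the adjusted values were 0.00048, 8e-05 and 8e-05. Without the 2 arrays farthest from the Egr1 median r was 0.70, 0.85 and 0.82. Within runs it lay between 0.79 and 0.95.

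Egr4 followed more loosely. With Egr1 it gave r of 0.14, 0.48 and 0.59 in the lesion, TTX and neuroleptic experiments, with rho of 0.12, 0.51 and 0.53; the permutation p was 0.55, 0.0353 and 1e-05 and adjusted 0.621, 0.106 and 8e-05. In the neuroleptic experiment r was 0.51, 0.84 and 0.63 within runs and 0.51 without the 2 farthest arrays. Egr2 with Egr4 gave r = 0.45 and rho = 0.39 there (permutation p = 0.00142 and 0.00428, adjusted 0.00628 and 0.0171), and r = 0.33 without the 2 farthest arrays. In the TTX experiment their rho of 0.60 passed (adjusted permutation p = 0.0278) and their r of 0.52 did not (0.0769). For Egr3, r with the other members lay between -0.24 and 0.34 in the 3 experiments, and no relation with it passed the adjusted threshold.

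The 2 probe sets of a gene did not track each other closely. For Egr2 r was 0.24, 0.37 and 0.43 in the lesion, TTX and neuroleptic experiments, and only the last had an adjusted permutation p under 0.05, at 0.00628. For Egr4 it was 0.16, -0.13 and 0.039. The second Egr4 probe set therefore gave no repeat of what the first one showed.

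**Figure D5:**
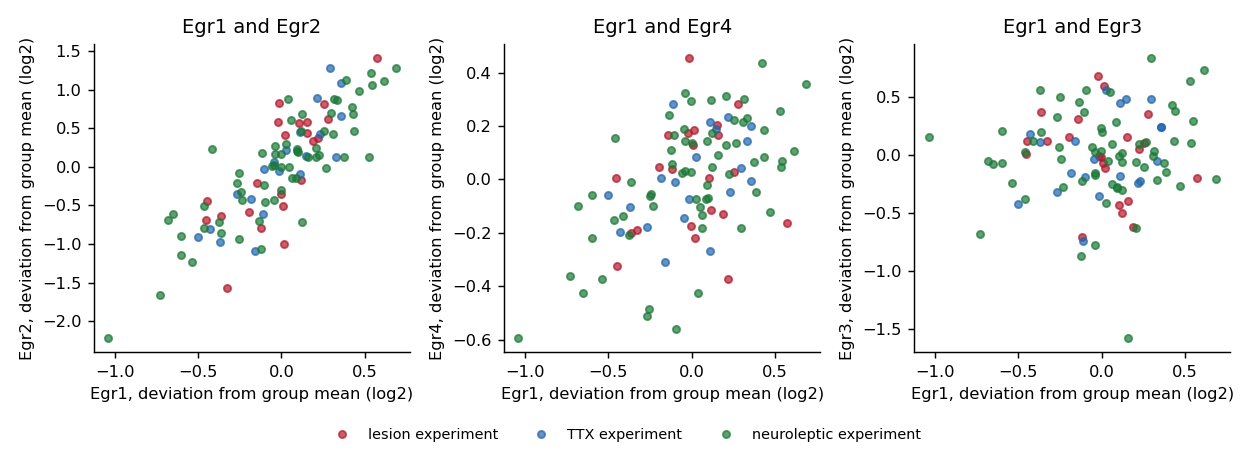
Deviation of each array from its group mean, in log2 units, for Egr1 (horizontal) against Egr2, Egr4 and Egr3 (vertical), coloured by experiment. Egr1 and Egr2 rise together in all 3 experiments, Egr4 follows loosely, and Egr3 shows no such relation.

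Genes most like each member were ranked by Pearson's r of deviations from group means over all arrays, among 9993 other genes with 1 filtered probe set each; these values are descriptions, and the arrays share normalisation and processing. The member most like Egr1 was Egr2, at r = 0.84, and Egr1 in turn ranked first for Egr2. Outside the family the closest to Egr1 were Fos at 0.70, Ier5, another immediate early gene, at 0.66, the nuclear receptor Nr4a3 at 0.60, the insulin signalling adaptor Irs2 at 0.57 and Xbp1, a factor of the unfolded protein response, at 0.57. The lowest were Arfrp1 at -0.49 and Commd5 at -0.48. Egr2 had the same leading genes, Fos at 0.77, Ier5 at 0.68 and Nr4a3 at 0.65, followed by Midn at 0.56 and the synaptic scaffold gene Homer1 at 0.53. Its lowest were Chchd5 at -0.40 and Osgin2 at -0.38.

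Egr4 was most like Mtcl1 at 0.54, Phrf1 at 0.52, Tmem108 at 0.51, Fmnl1 at 0.49 and P4ha1 at 0.49, and least like Srp9 at -0.54 and Glo1 at -0.53. Egr1 would have ranked 4th in the list of Egr4, at 0.51. Egr3 was most like Frrs1l and Gnai1, both at 0.50, Nol4l at 0.48, and Fam168a and Slc25a16 at 0.47, and least like Mesd and Grk6, both at -0.50. With the means of the runs removed as well, the 5 leading values of Egr3 lay between 0.20 and 0.34, and those of Egr1 between 0.54 and 0.69. None of the 5 genes named for Egr1 was among the 5 of Egr3 or Egr4.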

How the data were processed

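The deposited values are linear intensities, 1 for each probe set on each array. They had been scaled before they were deposited, since the trimmed mean lay between 2489.7 and 2494.4 on every array. Upstream software is not given in the sources used here. All 57 control probe sets were left out. Intensities were quantile-normalised within each experiment (lesion and TTX together for their joint test), raised to a floor of 32 and taken to log2; 6.04% of values lay below the floor. The brightest 60% of probe sets were tested with limma 3.58.1 (lmFit, eBayes) in R 4.3.3, 1 mean per group, Benjamini-Hochberg over 18625 probe sets. Dim members were tested over all 31042. There were 16 comparisons, 2 of them (high minus medium of each drug) added after the levels were seen. Drug means weight the 3 dose levels equally, and the 7 neuroleptic groups share 1 residual spread.

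Symbols came from the platform annotation table and changed for 0 probe sets through a table of the GRCr8 assembly; 20826 probe sets had 1 symbol, 436 several and 9780 none. The brightest probe set represents a gene. Named were all Egr probe sets, list members past the threshold (at most 4 a comparison), otherwise up to 2 with the smallest p in each direction, and for each Egr gene the 5 most and 2 least correlated genes. Dusp5, Hbb, Alas2, and Nab2 and Srf at medium clozapine were named after their values were seen. Members and lists were chosen with earlier results of these data known. Alternatives were another normalisation, floor, filter, array weights, a term for runs, averaged probe sets and left-out arrays. The limma code was tested on simulated data. Replicate numbers follow sample order and pair nothing. Figures used matplotlib 3.10.9.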

Additional observations from a re-analysis of the deposited data

Results flagged for a closer look

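In 3 of 54 sets of values tested, each an Egr probe set in 1 group of 8 to 10 arrays, the lowest array stood apart from the rest by Dixon's criterion; chance gives about 1 in 20. Egr1 was at 13.64 in replicate 6 of high clozapine, against 14.19 to 14.56 in the others. Egr3 was at 8.09 in replicate 5 of low clozapine, against 8.55 to 9.06, and at 7.14 in replicate 4 of medium haloperidol, against 8.43 to 9.57.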

How the results depend on the processing

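Of 928 alternative values for the 96 Egr differences, 885 kept their direction and side of the threshold, 39 turned their direction, 1 passed the threshold and 3 no longer did. Only 1 of the 96 differences was called as reported, so keeping the side of the threshold says little for the others. All lesion differences kept their direction. Egr2 at medium clozapine became 1.78 and passed with both probe sets averaged; its second probe set, at 2.06, no longer passed with a floor of 128 (1.26), with intensities as deposited (2.02) or in part of the leave-one-out fits (1.91 to 2.19). Clozapine minus haloperidol turned for Egr2 with array weights (-0.054), averaged probe sets (-0.057), without the arrays of low correlation (-0.028) and leaving out single arrays (-0.041 to 0.11). It turned for Egr3 without the arrays of low correlation (0.056) and leaving out single arrays (-0.078 to 0.023). It turned for Egr4 with array weights (-0.022), averaged probe sets (-0.12), intensities as deposited (-0.0081), without the arrays of low correlation (-0.039) and leaving out single arrays (-0.017 to 0.028). Without the arrays of low correlation, haloperidol high minus low was 0.020 for Egr1, 0.20 for Egr2 and 0.11 for the second Egr2 probe set, and high minus medium 0.055 for Egr1 and 0.044 for Egr2. Haloperidol high minus low was 0.093 for Egr2 with array weights and -0.00845 for Egr3 with a term for runs. Leaving out single arrays, it ran from -0.18 to 0.029 for Egr1, -0.21 to 0.21 for Egr2, -0.44 to 0.10 for the second Egr2 probe set and -0.025 to 0.16 for Egr3. With averaged probe sets Egr4 became -0.089 for high clozapine minus vehicle, 0.29 for haloperidol high minus low, 0.10 for high minus medium and 0.082 for TTX, where leaving out single arrays gave -0.048 to 0.012. The dim second Egr4 probe set turned for mean clozapine (0.031 with array weights, 0.0020 with runs, 0.091 with a floor of 128, -0.18 to 0.12 leaving out single arrays), medium clozapine (0.013, 0.0073, 0.021 and -0.18 to 0.16 in the same order), low haloperidol (0.16 with a floor of 128, 0.054 without the arrays of low correlation, -0.28 to 0.14 leaving out single arrays) and TTX (-0.025 to 0.41 leaving out single arrays). Probe sets called between the drugs numbered 224, against 529 with array weights, 1338 with runs, 49 with no filter and 0 without the arrays of low correlation. For clozapine 0 became 1 with the 40% brightest probe sets or intensities as deposited, for haloperidol 3 became 6 with runs and 1 with no filter, and for the lesion 0 became 1 with no filter. The causes were not tested. The 40% filter gave no value for the dim probe sets, whose closeness to background limits their precision.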
